A study of Saccharomyces cerevisiae with 8 samples.

Results

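The 34 genes described here are the numbered autophagy genes of the yeast Saccharomyces cerevisiae, taken by name (ATG and a number) as 34 of the 35 such rows in a table of 6016 protein-coding genes. Their mRNA was measured by RNA-seq and their translation by ribosome profiling (RIBO-seq), which sequences the pieces of mRNA that ribosomes shield from nuclease, here footprints of 25 to 33 nt. All cells were haploid BY4741, a laboratory strain, with an mCherry reporter interrupted by a UAG stop codon and a cassette of guide RNAs that direct the change of a chosen uridine to pseudouridine. The cassette of the targeted cells held a guide to the reporter's stop codon and a guide to the anticodon of a lysine tRNA, so any effect of one guide cannot be told apart from that of the other, and the cassette of the control cells held control guides. All groups grew in synthetic dextrose medium without leucine and uracil and were harvested in mid-log phase. Each of the 4 groups (RNA-seq and RIBO-seq, control and targeted) had 2 libraries, and the RNA came from an aliquot of the lysate, rRNA-depleted by the protocol although another label reads polyA RNA. The labels do not say whether replicates were separate cultures, so the p-values reflect only how far these libraries differ, which can be technical variation. In bulk lysates, fewer cells that express a gene and less RNA per cell cannot be told apart.

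Autophagy carries cytoplasm to the vacuole, the lysosome of yeast, inside a double-membraned vesicle that grows from a cup and then closes. It is low in fed cells, where the nutrient-sensing kinase TORC1 keeps the Atg1 kinase complex inactive, and it rises when nitrogen runs out. The same machinery works all the time in fed cells in the cytoplasm-to-vacuole targeting (Cvt) pathway, which delivers the enzyme Ape1 to the vacuole. The steps are start-up by the Atg1 complex, supply of membrane by Atg9 vesicles, marking of the membrane by a lipid kinase complex, attachment of the ubiquitin-like protein Atg8 to lipid, capture of cargo by receptors, and breakdown in the vacuole. Log-phase cells are usually in the fed state.

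All 34 genes matched the R64 RefSeq gene table with the same start and end, on 13 chromosomes. Library totals were 21073013 to 61908589 reads for RNA and 8080039 to 15253540 for footprints, of which the 34 genes held 7336 to 20524 and 5149 to 9200. Transposon genes (91 rows) held 69.8 to 72.9% of RNA reads and 20.6 to 23.2% of footprint reads, so single genes were measured at a lower depth than the totals give. The smallest members, ATG10 and ATG39, had 18 to 48 RNA reads and 9 to 25 footprints a library, which limits what can be seen of them. The labelled strain lacks the methionine gene MET17, and no library had more than 1 read of it. STE2, the alpha-factor receptor of MATa cells such as BY4741, had 4290 to 13044 reads a library, against 23 to 88 for STE3 of the opposite mating type. ATG29 overlaps SET6 on the other strand by 24 bases, so its reads are uncertain, since the strand setting of the counting is not given in the sources used here.

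Per coding length, most autophagy genes sat below the middle of the transcriptome in control cells. RNA levels, in RPKM (reads scaled to coding length and library size), had a median of 5.38 over the 34 genes. Over all genes of the table, with no filter on low counts, it was 10.5, and 5 of 34 lay above the latter. Mean RNA levels ran 50.3-fold, from 0.579 RPKM for ATG39 to 29.15 RPKM for ATG42. Footprint levels ran 74.7-fold, from 1.04 RPKM for ATG39 to 77.85 RPKM for ATG42. Their median was 6.98 against 18.7 for all genes of the table, and 6 of 34 lay above the latter.

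ATG42, which encodes a vacuolar carboxypeptidase (YBR139W, chromosome 2, 515664 to 517190, plus strand on R64), stood highest with an RNA level of 29.15 ± 2.23 RPKM (SD, n = 2) in control cells. ATG27, for a membrane protein of Atg9 vesicle traffic, followed at 27.5 ± 1.46 RPKM, and the ranges of these neighbours overlapped. ATG33, for a mitochondrial protein needed for the removal of mitochondria, was at 18.2 ± 1.95 RPKM. ATG19, for the Cvt receptor that binds Ape1, was at 15.1 ± 1.26 RPKM and ATG8 at 12.5 ± 1.14 RPKM, each apart from its neighbours in the order. At the bottom, ATG23, whose product also acts in Atg9 traffic, was at 2.95 ± 0.365 RPKM, and ATG14, the subunit that fits the lipid kinase to autophagy, was at 2.23 ± 0.00141 RPKM. ATG10, for the enzyme that joins Atg12 to Atg5, was at 1.33 ± 0.171 RPKM, and ATG39, for a receptor of the nuclear envelope and endoplasmic reticulum (ER), at 0.579 ± 0.0919 RPKM. Of the 33 pairs of neighbours in the order of RNA levels, 23 overlapped in their 2 control libraries, so the middle of the order is not resolved.

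**Figure D1:**
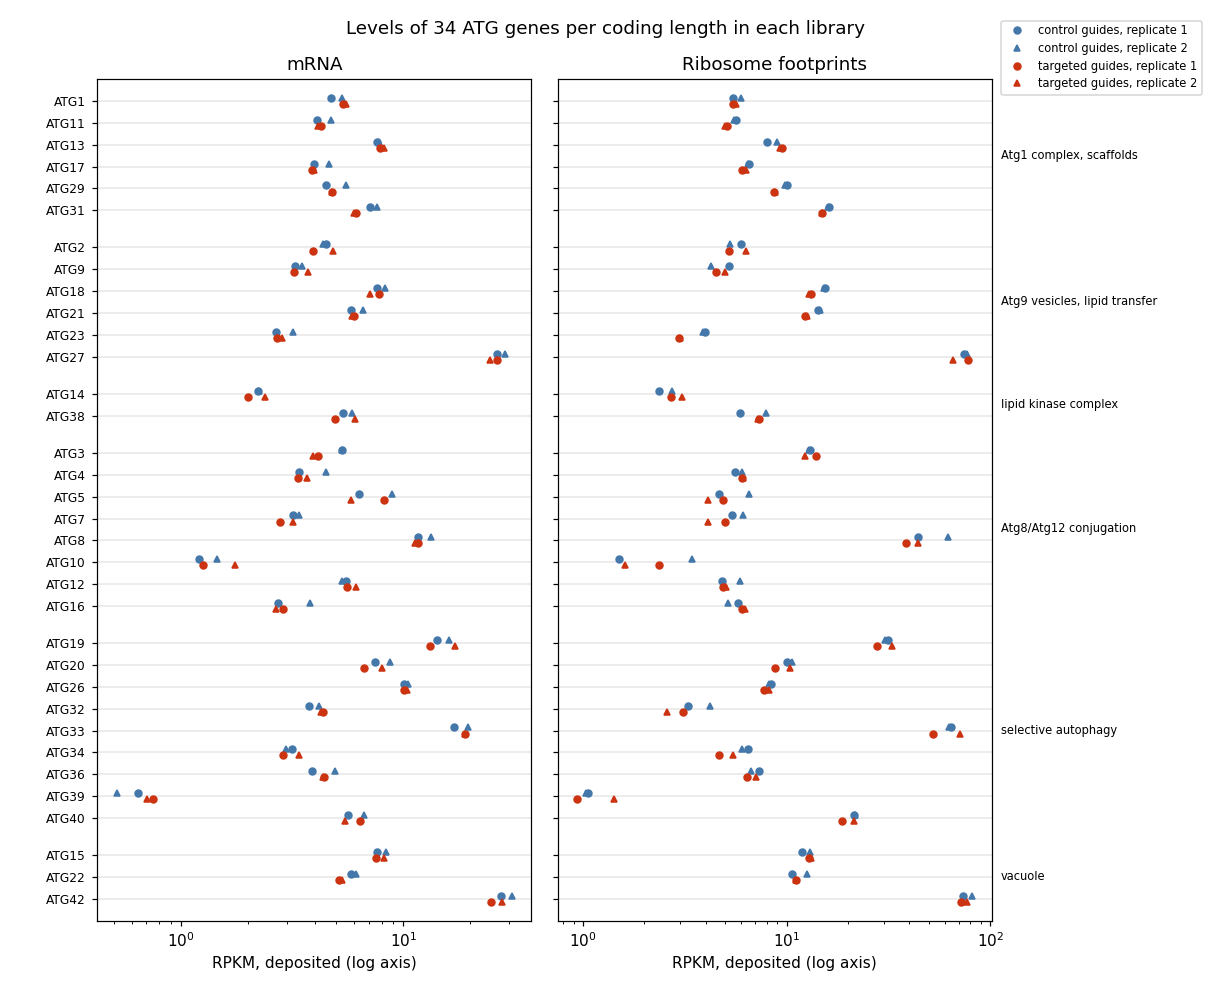
RNA level (left) and footprint level (right) of each of the 34 genes in RPKM on log axes, grouped by role, with 1 point per library (circle replicate 1, triangle replicate 2, blue control guides, red targeted guides). ATG42, ATG27 and ATG33 stand at the right of both panels and ATG39 at the left, and for most genes the blue and red points lie close together or mixed.

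Whether targeted pseudouridylation moved the mRNA of these genes was tested with edgeR's quasi-likelihood test, in which the adjusted p is corrected over all genes (Benjamini-Hochberg) with a threshold of 0.05. No autophagy gene passed in RNA (0 of 34), against 0.368% of the 5712 genes tested, with DESeq2 and limma-voom also at 0. At an unadjusted p under 0.05 edgeR had 2 of 34 (5.88%), against 4.46% of all genes. Log2 differences (targeted minus control) ran from -0.32 to 0.37 with a median of 0.04, against 0.00 for all genes. Of the 34 estimates, 22 were above 0, or 12 when libraries were scaled by their totals only, so no common direction can be given. The 95% interval stayed within a 1.5-fold change either way for 30 of 34 genes and within 2-fold for 33 of 34. The 2 control and 2 targeted libraries did not overlap for 10 of 34 genes (29.4%), with 7 above and 3 below, against 32.3% of all genes (16.2% above, 16.1% below).

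Among the start-up genes, ATG1, for the kinase that begins autophagy (YGL180W, chromosome 7, 160065 to 162758, plus strand), had RNA levels of 12.97 and 13.5 in the control libraries and 14.8 and 15.8 in the targeted libraries, in normalised CPM (counts scaled to library size with TMM factors). The targeted libraries were both above the control libraries, and the log2 difference of 0.21 ± 0.08 (SE) had an unadjusted edgeR p of 0.0343 and an adjusted p of 0.973. ATG13, for the regulatory partner through which TORC1 acts on Atg1, had RNA levels of 17.2 and 16.3 in the control libraries and 17.9 and 19.3 in the targeted libraries in normalised CPM, again without overlap, with a log2 difference of 0.14 ± 0.08. ATG11, the scaffold of selective autophagy, had 14.8 and 15.7 (control) and 15.5 and 15.5 (targeted), and the targeted values lay between the control values. The scaffold genes ATG17, ATG29 and ATG31, which build the assembly site in starved cells, had log2 differences in RNA of -0.04, 0.04 and -0.19.

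In the conjugation systems, ATG3, for the enzyme that passes Atg8 to its lipid (YNR007C, chromosome 14, 639182 to 640114, minus strand), had the smallest unadjusted p in RNA. Its RNA levels were 5.08 and 4.66 in the control libraries and 3.95 and 3.91 in the targeted libraries in normalised CPM, so the targeted libraries were both lower and close together. The log2 difference was -0.32 ± 0.12 (95% interval -0.59 to -0.04), with an unadjusted edgeR p of 0.0310 and an adjusted p of 0.973. ATG8, the gene of the protein that coats the growing membrane (YBL078C, chromosome 2, 80378 to 80731, minus strand), had RNA levels of 4.24 and 4.44 (control) and 4.25 and 4.26 (targeted), and the groups overlapped. Over the 8 conjugation genes the median log2 difference in RNA was -0.05, and 5 of 8 estimates were below 0.

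Membrane supply showed little spread in RNA, with log2 differences of -0.02 to 0.12 over 6 genes. ATG9, for the membrane protein of the vesicles that seed the cup, had RNA levels of 10 and 9.93 in the control libraries and 9.98 and 11.9 in the targeted libraries in normalised CPM, and the upper value came from targeted replicate 2 alone. ATG14 had 2.37 and 2.18 (control) and 2.14 and 2.62 (targeted), in overlapping groups.

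Among the 9 genes of receptors and selective pathways, 8 RNA estimates were above 0 and none passed, beside 2854 of all 5712 genes above 0. Over the 34 genes the count above 0 fell from 22 to 12 under scaling by totals, so no common direction is given here either. ATG32, for the receptor on mitochondria (YIL146C, chromosome 9, 74184 to 75773, minus strand), had RNA levels of 6.13 and 6.29 in the control libraries and 7.13 and 7.23 in the targeted libraries in normalised CPM. Its targeted libraries were both higher, with a log2 difference of 0.21 ± 0.10 and an unadjusted edgeR p of 0.0647 (adjusted p 0.973). ATG19 had 18.1 and 18.8 (control) and 16.96 and 22.6 (targeted), ATG40, for a receptor of the ER, had 4.47 and 4.85 (control) and 5.05 and 4.46 (targeted), and both overlapped. ATG39 had RNA levels of 0.788 and 0.579 (control) and 0.921 and 0.891 (targeted) in normalised CPM, both targeted libraries above both control libraries, yet with so few reads that the 95% interval of its log2 difference ran from -0.32 to 1.06.

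**Figure D2:**
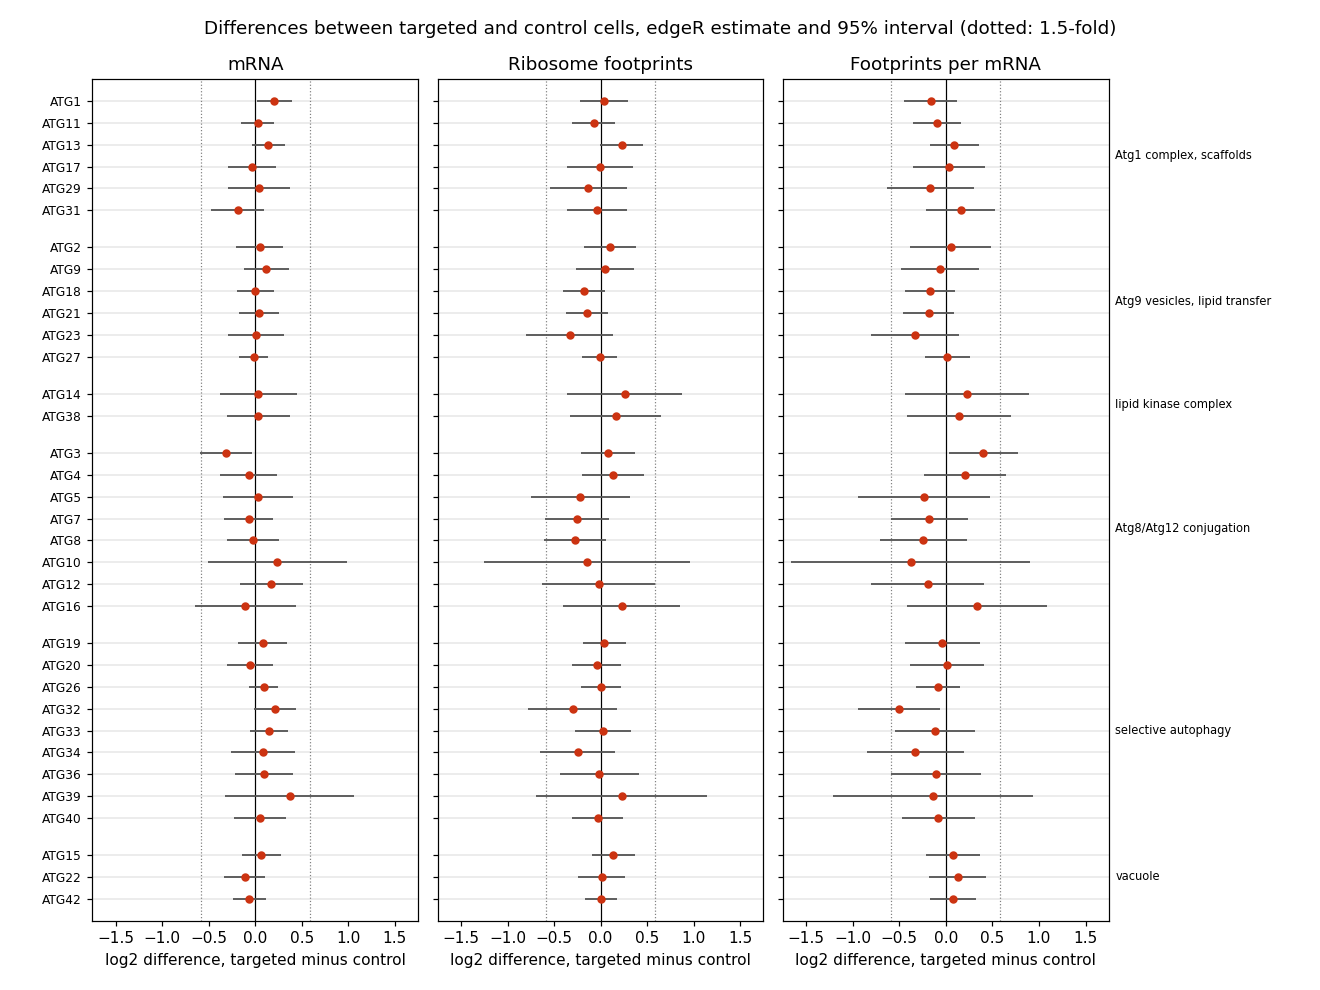
Log2 difference between targeted and control cells for RNA (left), footprints (middle) and footprints per mRNA (right) of the 34 genes, grouped by role. Points are edgeR estimates, bars are 95% intervals and dotted lines mark a 1.5-fold change. Intervals lie within the dotted lines for 30, 22 and 18 of 34 genes in the 3 panels, and those of ATG10 and ATG39 are the widest.

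Footprints of the autophagy genes did not pass the test either. In edgeR 0 of 34 were called, against 0.586% of the 5461 genes tested, DESeq2 and limma-voom called 0, and at an unadjusted p under 0.05 edgeR had 0 of 34, against 4.54% of all genes. Log2 differences ran from -0.33 to 0.26 with a median of -0.01, against 0.00 for all genes, and 16 of 34 were above 0. The 95% interval lay within 1.5-fold either way for 22 genes and within 2-fold for 32. The groups did not overlap for 13 of 34 genes (38.2%), with 5 above and 8 below, against 31.3% of all genes (16.1% above, 15.2% below).

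ATG13 had the smallest footprint p of the 34. Its footprints were 18.1 and 19.5 in the control libraries and 21.9 and 21.97 in the targeted libraries in normalised CPM, so both targeted libraries were higher, and the log2 difference was 0.23 ± 0.10 with an unadjusted edgeR p of 0.0539 (adjusted p 0.999). ATG1 footprints were 14.9 and 15.9 in the control libraries and 15.3 and 16.2 in the targeted libraries, in overlapping groups with a log2 difference of 0.04 ± 0.12. ATG11 footprints were 20.2 and 19.2 (control) and 18.8 and 18.7 (targeted), with the targeted libraries just below the control libraries.

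ATG8 footprints were 16.03 and 21.7 (control) and 14.2 and 16.6 (targeted) in normalised CPM, and 1 library, control replicate 2, stood above the others. The log2 difference of -0.27 ± 0.15 (unadjusted edgeR p 0.0962, adjusted p 0.999) moved to -0.06 without that library and to -0.50 without control replicate 1. ATG18, for a protein that binds phosphoinositide on the growing membrane, had footprints of 23.7 and 22.6 in the control libraries and 20.5 and 20.5 in the targeted libraries, both targeted libraries lower, with a log2 difference of -0.18 ± 0.10. ATG3 had footprints of 12.4 and 11.8 in the control libraries and 13.5 and 12.1 in the targeted libraries, in overlapping groups.

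The receptor genes showed no shared direction in footprints, with 4 of 9 estimates above 0. ATG32 footprints were 5.32 and 6.55 in the control libraries and 5.12 and 4.38 in the targeted libraries in normalised CPM, both targeted libraries below both control libraries, with a log2 difference of -0.30 ± 0.22 (adjusted edgeR p 0.999). ATG19 footprints were 39.95 and 37.4 (control) and 36.1 and 43.5 (targeted) and ATG40 footprints 16.8 and 16.4 (control) and 14.96 and 17.6 (targeted), both with overlap. ATG39 footprints were 1.29 and 1.21 (control) and 1.17 and 1.79 (targeted), where targeted replicate 2 stood above the rest. Footprints of ATG9 were 15.9 and 12.5 in the control libraries and 13.9 and 15.9 in the targeted libraries and those of ATG14 were 2.49 and 2.79 (control) and 2.91 and 3.38 (targeted), the latter with both targeted libraries higher.

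Footprints per mRNA compare the footprint reads of a gene with its RNA reads. Reads of both kinds grow with coding length, so this ratio stands for ribosomes per length of message, not per message. The change of the ratio between control and targeted cells was tested as the interaction of assay and guide over all 8 libraries. No autophagy gene passed (edgeR, 0 of 34, with DESeq2 and limma-voom at 0), and neither did any of the 5665 genes tested (0%). With the lysate as a block, 0.106% of all genes passed and 0 of 34 members. At an unadjusted p under 0.05 edgeR had 2 of 34 (5.88%), against 1.85% of all genes. The median change was -0.08 on the log2 scale, against 0.01 for all genes, and 14 of 34 estimates were above 0. The 95% interval lay within 1.5-fold either way for 18 of 34. For the other genes it reached beyond 1.5-fold, so changes of that size could have been missed at this depth and replication, as could smaller changes of any gene. The deposited ratio of footprint to RNA RPKM did not overlap between the groups for 15 of 34 genes (44.1%), with 8 above and 7 below, against 31.7% of all genes (19.7% above, 11.9% below).

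The genes with the smallest p here, ATG32 and ATG3, lay on opposite sides of 0. ATG32 had deposited ratios of 0.871 and 0.996 in control lysates and 0.711 and 0.607 in targeted lysates, the targeted values both lower. The edgeR log2 change of its ratio was -0.50 ± 0.20 (95% interval -0.94 to -0.06), with an unadjusted p of 0.0295 and an adjusted p of 1, and it ran from -0.64 to -0.38 when each replicate was left out. The ratio of ATG3 was 2.45 and 2.41 in control lysates and 3.38 and 3.10 in targeted lysates, the targeted values both higher, with a log2 change of 0.40 ± 0.17 (unadjusted edgeR p 0.0367, adjusted p 1). In ATG3 the RNA estimate was below 0 and the footprint estimate near 0, and in ATG32 the RNA estimate was above 0 and the footprint estimate below 0. ATG23 came next, with ratios of 1.47 and 1.21 in control lysates and 1.10 and 1.05 in targeted lysates, both targeted values lower, and a log2 change of -0.33 ± 0.21 (unadjusted edgeR p 0.149). The RNA enters this change with the opposite sign, so RNA differences and ratio changes of one gene are not independent.

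Within control cells, the autophagy genes differed widely from each other in footprints per mRNA. Tested in the 4 control libraries against the average gene (TMM scaling sets that average to 0), 7 of 34 were higher (20.6%) and 16 of 34 lower (47.1%). Of all 5660 genes, 75.2% were called, with 36.5% higher and 38.7% lower, so being called is common and the set held fewer higher and more lower genes than the table as a whole, a difference that was not tested. The median of the 34 genes was -0.23 on the log2 scale, against -0.02 for all genes. Zero is set by the scaling here: when libraries were scaled by their totals only, the median of all genes moved to 0.95, and 23 of 34 were higher and 2 lower. Transposon genes held unlike shares of the RNA and footprint totals, as given above, and their part in this shift was not tested. DESeq2 called 5 higher and 11 lower, without ATG3 and ATG21 among the higher and without ATG4, ATG14, ATG15, ATG17 and ATG23 among the lower. Higher and lower below mean against the TMM average, and the members whose sign turns under scaling by totals are listed with the settings at the end. Relative to the median of all genes, the median of the 34 was -0.21 under either scaling. In the deposited ratios, 21, 21, 23 and 23 of the 34 genes lay below the median of all genes tested in control lysates 1 and 2 and targeted lysates 1 and 2.

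Of the start-up genes, 4 of 6 were lower in footprints per mRNA in control cells and 0 of 6 higher, beside 38.7% and 36.5% of all genes. The 4 lower estimates all lie above 0 under scaling by totals. ATG1, ATG11 and ATG13 are over 2000 bases long, and of all genes of that length 78% were lower. ATG13 stood at -0.85 ± 0.09 on the log2 scale (adjusted edgeR p 2.20e-05), with deposited ratios of 1.05 and 1.15 in control lysates and 1.21 and 1.14 in targeted lysates. ATG1 stood at -0.79 ± 0.09 (adjusted edgeR p 4.95e-05), with deposited ratios of 1.15 and 1.12 in control lysates and 1.02 and 1.03 in targeted lysates. ATG11 was at -0.63 ± 0.09 and ATG17 at -0.36 ± 0.13, whereas ATG29 (0.04 ± 0.16) and ATG31 (0.15 ± 0.13) did not pass. The call for ATG17 was lost when any 1 of the 4 control libraries was left out.

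Both lipid kinase subunits in the set were lower than the average gene (above 0 under scaling by totals), ATG14 at -0.81 ± 0.22 and ATG38, which holds that complex together, at -0.70 ± 0.17 on the log2 scale. ATG14 lost its call without RNA replicate 1 or footprint replicate 1 and with DESeq2, and ATG38 lost it without footprint replicate 1. In membrane supply 2 of 6 were higher and 3 of 6 lower, beside 36.5% and 38.7% of all genes. ATG27 was higher at 0.48 ± 0.06, with deposited ratios of 2.80 and 2.70 in control lysates and 2.95 and 2.66 in targeted lysates, and ATG21, a relative of ATG18 that acts in the Cvt pathway, was higher at 0.26 ± 0.09. The call of ATG21 was lost when any 1 control library was left out. ATG2, for the protein that moves lipid into the cup, was lower at -0.63 ± 0.10, ATG9 at -0.48 ± 0.12 and ATG23 at -0.54 ± 0.16, the last of which lost its call without RNA or footprint replicate 2.

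The conjugation genes held both ends of the order. ATG8 was highest of all 34, at 1.10 ± 0.15 on the log2 scale (adjusted edgeR p 0.000132), and its deposited ratios were 3.79 and 4.67 in control lysates and 3.32 and 3.89 in targeted lysates. ATG5, for the protein to which Atg12 is joined, was lowest of all 34, at -1.42 ± 0.20 (adjusted edgeR p 0.000168), with ratios of 0.733 and 0.738 in control lysates and 0.593 and 0.712 in targeted lysates. Every lysate gave ATG8 more than 3 and ATG5 less than 1 footprint RPKM per RNA RPKM, beside medians of 1.88 to 1.98 over all genes tested.

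Atg12, Atg5 and Atg16 form one complex that helps Atg8 onto the membrane, and in control cells the levels of their genes were spread more widely in RNA than in footprints. In control cells the mean RNA levels were 7.61 ± 1.78 RPKM for ATG5, 5.44 ± 0.161 for ATG12 and 3.27 ± 0.767 for ATG16. Footprint levels in control cells were 4.66 and 6.54 RPKM for ATG5, 4.80 and 5.93 for ATG12 and 5.75 and 5.17 for ATG16, and these ranges overlapped. The control levels rest on few footprints, 49 and 47 for ATG5, 32 and 27 for ATG12 and 31 and 19 for ATG16. Differences between these genes were not tested. In targeted cells footprint levels were 4.86 and 4.12 RPKM for ATG5, 4.89 and 5.06 for ATG12 and 6.05 and 6.27 for ATG16, where ATG16 was above both others. ATG12 was lower in footprints per mRNA at -1.03 ± 0.20 on the log2 scale, with deposited ratios of 0.864 and 1.11 in control lysates and 0.871 and 0.823 in targeted lysates, while ATG16 did not pass at -0.18 ± 0.27. Of the enzymes, ATG3 was higher at 0.30 ± 0.12 and ATG4, for the protease that trims Atg8, was lower at -0.39 ± 0.14. The call of ATG3 was lost when any 1 of the control libraries was left out, and that of ATG4 without RNA replicate 2 or either footprint library, and with DESeq2 or limma-voom. The calls of ATG3 and ATG21 were also lost with at least 10 CPM in 2 libraries. ATG7, for the activating enzyme of both systems (-0.19 ± 0.11), and ATG10 (-0.16 ± 0.42) did not pass.

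Receptors also spanned the range, with 2 of 9 genes of selective pathways higher and 3 of 9 lower, beside 36.5% and 38.7% of all genes. ATG40 was higher at 0.84 ± 0.11 on the log2 scale (adjusted edgeR p 0.000120), with deposited ratios of 3.77 and 3.22 in control lysates and 2.93 and 3.94 in targeted lysates. ATG33 was higher at 0.83 ± 0.08 (adjusted edgeR p 1.96e-05), with ratios of 3.80 and 3.18 in control lysates and 2.77 and 3.76 in targeted lysates. ATG26, a sterol glucosyltransferase needed for the removal of peroxisomes in the yeast Pichia pastoris, was lower at -1.27 ± 0.07 (adjusted edgeR p 3.30e-07), with ratios of 0.836 and 0.786 in control lysates and 0.761 and 0.789 in targeted lysates. ATG32 was lower at -1.09 ± 0.14 (adjusted edgeR p 0.000106), with the deposited ratios given above. ATG20, a sorting nexin of the Cvt pathway, was lower at -0.61 ± 0.09. The Cvt receptor ATG19 (0.07 ± 0.07), its relative ATG34 (0.05 ± 0.15), ATG39 (-0.17 ± 0.36) and ATG36, the receptor on peroxisomes (-0.27 ± 0.16), did not pass. ATG32 and ATG33 both serve the removal of mitochondria and stood on opposite sides of the average gene.

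In the vacuole, ATG42 was higher at 0.44 ± 0.05 on the log2 scale and ATG15, for the lipase that opens the delivered vesicle, was lower at -0.34 ± 0.09, a call lost without footprint replicate 1 and with DESeq2. ATG22, for an exporter of amino acids, did not pass at -0.03 ± 0.10.

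**Figure D3:**
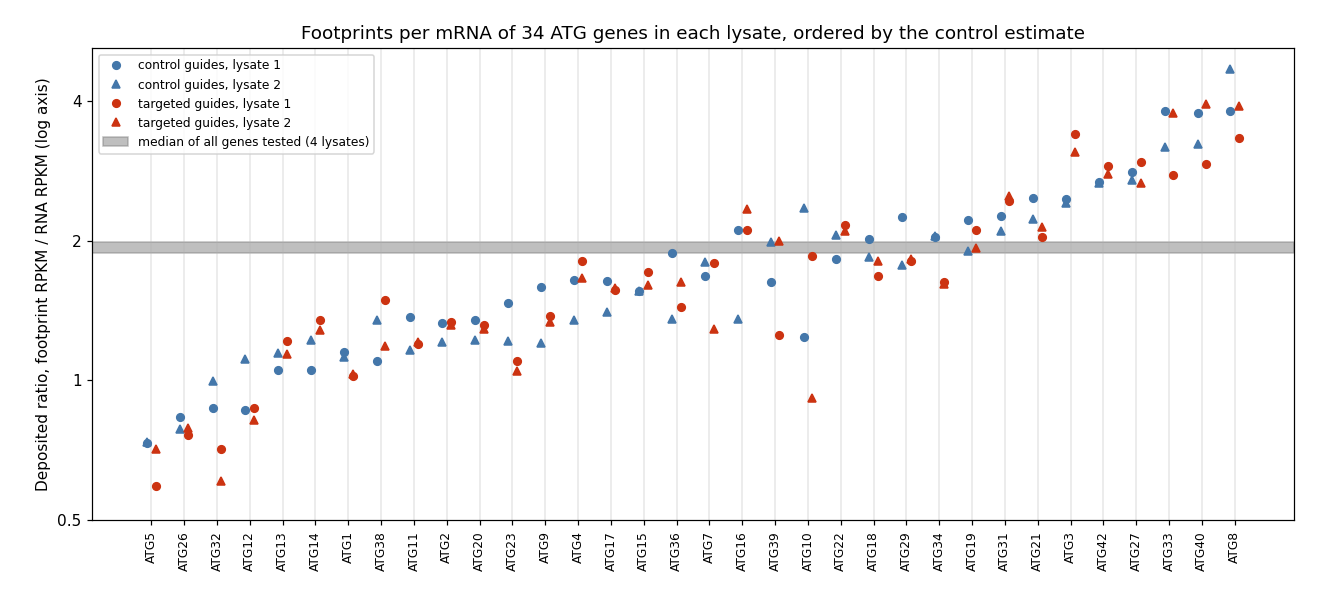
Deposited ratio of footprint RPKM to RNA RPKM on a log axis for the 34 genes, ordered by the control estimate, with 1 point per lysate (circle lysate 1, triangle lysate 2, blue control, red targeted). The gray band spans the median of all genes tested over the 4 lysates, 1.88 to 1.98, and the order from ATG5 to ATG8 is similar in blue and red.

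The order was much the same in targeted cells. In the 4 targeted libraries 6 of 34 were higher and 13 of 34 lower, against 71.2% called among all 5618 genes (34.8% higher, 36.3% lower), and the median was -0.32 on the log2 scale against -0.01. Under scaling by totals only, the split was 25 higher and 3 lower, with the median of all genes at 1.02. With the lysate as a block 17 of 34 were lower, against 39.7% of all genes, the added calls being ATG15, ATG7, ATG36 and ATG17 with adjusted edgeR p of 0.0148, 0.0342, 0.0385 and 0.0402. The same 6 genes were higher in both states (ATG8, ATG40, ATG33, ATG3, ATG42 and ATG27), the same 13 lower in both, and 11 passed in neither. ATG21 was higher, and ATG4, ATG15 and ATG17 lower, in control cells alone, and the change itself did not pass for any of them. ATG14 lost its targeted call without RNA replicate 2 or footprint replicate 1, and ATG38 without RNA replicate 2, and both lost it with DESeq2, as ATG14 did with no filter on low counts. Across the 34 genes the control and targeted estimates had a Pearson r of 0.951 and a Spearman rho of 0.943, given as a description since genes share libraries, against 0.978 and 0.979 over 5610 genes.

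Coding length ran along with footprints per mRNA, in these genes and in the table. Across the 34 genes the control estimate and log2 coding length had a Pearson r of -0.462 and a Spearman rho of -0.450, against -0.242 and -0.519 over all 5660 genes, and all points share the same 4 libraries. All 6 autophagy genes over 2000 bases (ATG1, ATG2, ATG9, ATG11, ATG13 and ATG26) were lower (5 of them above 0 under scaling by totals), as were 78% of the 1319 genes of that length. Of the 6 under 600 bases (ATG8, ATG10, ATG12, ATG16, ATG31 and ATG33), 2 were higher and 1 lower, against 66.7% higher and 15.7% lower among 971 genes. The part of length in the values above was not tested. The median coding length was 1251 bases for the 34 genes and 1254 for all genes tested.

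**Figure D4:**
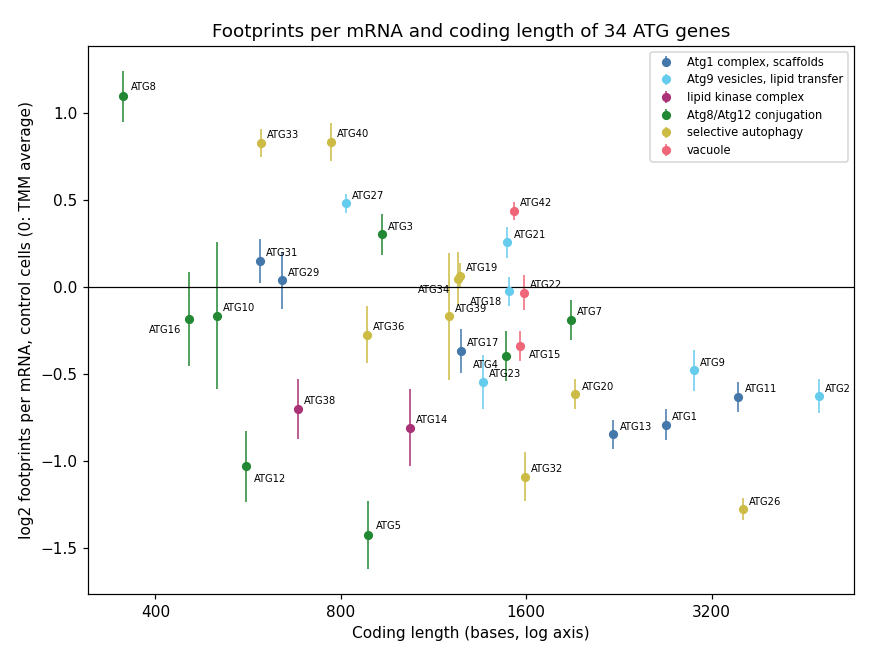
Log2 footprints per mRNA in control cells (0 is the TMM average) against coding length in bases on a log axis for the 34 genes, colored by role, with edgeR estimates and SE bars. Genes over 2000 bases all lie below 0 (5 of 6 above it under scaling by totals), ATG8 stands at the upper left, and ATG5 and ATG12 lie below the other genes of similar length.

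A further 43 genes work with this set under other names (kinase subunits, Cvt cargo, vesicle fusion, vacuolar proteases, regulators). With edgeR they gave 0 calls in RNA (DESeq2 and limma-voom 0), 1 in footprints (2.33%) and 0 in the change of the ratio. The list was chosen with earlier results of these data known, so the 2.33% cannot be read as a finding about these genes. Over all genes tested, 0.368%, 0.586% and 0% were called. At an unadjusted edgeR p under 0.05 the 43 had 1 gene in RNA (2.33%) and 2 in the change of the ratio (4.65%), against 4.46% and 1.85% of all genes. Lipid kinase subunits outside the numbered set were also lower than the TMM average in control cells, as were 38.7% of all genes. Signs of related genes under scaling by totals are not given here. VPS34, the kinase itself, was lower in footprints per mRNA at -0.58 ± 0.07 on the log2 scale, VPS15, its regulatory subunit, at -0.61 ± 0.07, and VPS30, the yeast Beclin, at -0.53 ± 0.11. Cargo and proteases lay on the other side, with APE1 higher at 0.61 ± 0.05 and the vacuolar proteases PEP4 and PRB1 higher at 0.86 ± 0.04 and 0.41 ± 0.14. SNX4, the partner of Atg20, did not pass at -0.01 ± 0.09. UME6, for a repressor of ATG8 in fed cells, was lower in footprints per mRNA at -0.96 ± 0.09, and its RNA levels were 15.8 and 16.1 (control) and 15.1 and 16.7 (targeted) in normalised CPM, in overlapping groups. UME6, VPS34 and VPS15 are over 2000 bases long, and of all genes of that length 78% were lower. In all, 14 of the 43 were higher (32.6%) and 19 lower (44.2%) in control cells, close to the 36.5% and 38.7% of all genes.

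The one related gene called in footprints was GCN4, the activator of amino acid synthesis, which is translated more when amino acids are short and is known to act on some autophagy genes. Its footprints were 42.4 and 58.1 in the control libraries and 86.05 and 89.1 in the targeted libraries in normalised CPM, both targeted libraries far above the control libraries. The log2 difference in footprints was 0.81 ± 0.12 (adjusted edgeR p 0.00863), beside 0.16 ± 0.07 in RNA, which did not pass. The change of its ratio, 0.66 ± 0.15, passed only with the lysate as a block (adjusted edgeR p 6.52e-05). Beside it, no member passed in RNA or footprints.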

How the data were processed

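The authors' table gave counts, RPKM and a ratio per gene and library. The authors' counts are unnormalised whole numbers. Their RPKM, also deposited by the authors, scales them to coding length and library size. The deposited ratio divides footprint RPKM by RNA RPKM after 0.01 was added to each, and 100% of its values could be recomputed within 0.1 percent. The submitters' processing notes name cutadapt, STAR and build R64, without versions or roles. How reads were counted, by strand or at several positions, is not given in the sources used here.

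Counts were tested with edgeR 4.0.16 (R 4.3.3; TMM, filterByExpr, quasi-likelihood, two-sided), fitted on all genes, after a check on simulated counts. RNA and footprints used their own 4 libraries, footprints per mRNA the 4 libraries of control or of targeted cells, and its change all 8. SE is the log2 value over the square root of F. DESeq2 1.42.0 and limma-voom (limma 3.58.1) were alternatives. Replicates differed by more than sampling noise (chi-square per degree of freedom 5.29 to 18.4). RNA and footprint libraries of a lysate deviated together (r = 0.339 in control, 0.445 in targeted cells), so the lysate pairs them.

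Members and related genes were chosen with earlier results of these data known. Genes picked for closer description are 10 members chosen by role, the 3 smallest p of each comparison, the 4 highest and lowest RNA levels and ratios, and 9 related genes. Not all of them are given with the values of every library. Other members are named within their role group. Per-gene sequences were not used here, and 1 row with an ATG name is not reported here.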

Additional observations from a re-analysis of the deposited data

How the results depend on the processing

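For the 34 genes, 0 calls in RNA, in footprints and in the change of footprints per mRNA held under other scalings, filters, DESeq2, limma-voom, removal of the transposon rows and leaving out each replicate. DESeq2 gave an adjusted p for 6 of 34 in RNA and 14 of 34 in footprints. Over all genes, edgeR's 21 RNA calls fell to 0 without control replicate 1 and 9 and 13 without targeted replicate 1 and 2. Its 32 footprint calls became 53 without control replicate 1 and 159 and 85 without targeted replicate 1 and 2, and its 0 calls for the change of the ratio became 2 without targeted replicate 2.

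Control and targeted cells share only a replicate number, and same-numbered libraries did not deviate together (r = -0.117 in RNA, -0.064 in footprints). The block was the replicate number for RNA and footprints, and the lysate for the change of footprints per mRNA. With these blocks, 0 of 34 genes were called in each of the 3 comparisons. Footprint calls over all genes became 60, and for the change of footprints per mRNA 6 genes were called in place of 0, among them 1 of the 43 related genes. Within one state the block is also the lysate and changed no other calls of the 34 genes than those given above. With the numbers crossed, a choice made after seeing the data, 71 genes in all and none of the 34 or 43 were called in RNA.

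Related genes called in footprints ranged from 1 to 2 when each replicate was left out (2 without targeted replicate 1). With at least 10 CPM in 2 libraries, 19 of the 34 genes were tested and 14 called in control footprints per mRNA. Leaving out 1 lysate leaves no residual degrees of freedom within a state, so single libraries were left out instead, a choice made after seeing the data. In control cells 5 of 7 higher and 10 of 16 lower calls held in every setting that tested the gene, apart from scaling by totals. In targeted cells 6 of 6 and 11 of 13 did. Of these, ATG5, ATG12 and ATG32 in both states and ATG23 in targeted cells fell below the 10 CPM filter and were not tested there.

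Scaling by totals only moved the median of all genes in control and targeted cells to 0.95 and 1.02 on the log2 scale and turned the sign of footprints per mRNA for 19 of the 34 genes in each state, by construction. In control cells the log2 values became 0.17 for ATG14, 0.95 for ATG22, 0.64 for ATG15, 0.49 for ATG9, 0.35 for ATG20, 0.95 for ATG18, 0.18 for ATG1, 0.79 for ATG7, 0.69 for ATG36, 0.81 for ATG10, 0.28 for ATG38, 0.81 for ATG39, 0.60 for ATG17, 0.42 for ATG23, 0.78 for ATG16, 0.35 for ATG2, 0.57 for ATG4, 0.34 for ATG11 and 0.13 for ATG13. In targeted cells they became 0.45 for ATG14, 0.77 for ATG15, 0.49 for ATG9, 0.43 for ATG20, 0.84 for ATG18, 0.08 for ATG1, 0.67 for ATG7, 0.65 for ATG36, 0.48 for ATG10, 0.47 for ATG38, 0.71 for ATG39, 0.70 for ATG17, 0.15 for ATG23, 0.46 for ATG2, 0.84 for ATG4, 0.75 for ATG34, 0.90 for ATG29, 0.31 for ATG11 and 0.28 for ATG13.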
